A study of Arabidopsis thaliana with 6 samples.

Results

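The genes described here encode proteins that loosen, cut or build the cellulose and hemicellulose of the plant primary cell wall. They comprised the expansins (EXPA, EXPB, EXLA and EXLB), the xyloglucan endotransglucosylase/hydrolases (XTH), the glycosyl hydrolase family 9 endoglucanases (GH9A, GH9B and GH9C) and the cellulose synthase-like genes (CSL). Members were taken by a rule on gene symbol, as the array's gene table gave it or as updated, from probe sets assigned to a single gene. They were chosen with earlier results of these data known. The rule gave 50 genes of 13356 in all, each with 1 probe set, namely 10 EXPA, 4 EXPB, 4 EXLA or EXLB, 9 XTH, 15 GH9 and 8 CSL genes. The rule also covered the cellulose synthase genes (CESA), of which 0 were found, so that cellulose synthase itself was not analysed here.

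RNA of callus and leaf of Arabidopsis thaliana, both in the Col-0 background, was hybridised to Affymetrix GeneChip arrays, 3 per tissue. Calli are cell masses that the paper likens to the root meristem. They had formed on 20-day leaf blades during 20 days on callus-inducing medium (CIM). The medium held glucose, the cytokinin kinetin and the auxin 2,4-dichlorophenoxyacetic acid. Leaves were taken from 20-day seedlings without any such culture. Tissue, medium, hormones, detachment and time in culture therefore cannot be told apart, and the sources differ on light, since explants on CIM were kept in the dark by the methods but in a day and night cycle, like the seedlings, by the sample labels.

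A growing plant cell is held by a wall in which cellulose microfibrils are bound into a matrix of xyloglucan, other hemicelluloses and pectin. Expansins let the polymers slide at acidic pH without cutting them, XTH enzymes cut xyloglucan chains and rejoin them, and GH9 enzymes hydrolyse beta-1,4-glucan. CSL proteins in the Golgi make hemicellulose backbones, xyloglucan in the case of CSLC and mannan in the case of CSLA, and CSLD proteins are known from tip growth and cell division.

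The 6 arrays were alike within each tissue, with Pearson correlations across genes of at least 0.9967 among callus arrays and 0.9949 among leaf arrays. Values are log2 signals. The first quartile of the genes lay at 4.01 to 4.08 on the callus arrays and 4.03 to 4.10 on the leaf arrays. Signals near or below it may hold little but background, and RMA gives no detection call. Of 6 leaf markers 4 were measured and all 4 were lower in callus, by log2 fold changes of -6.84 to -8.77, and of 4 markers of dividing cells 3 were measured and all 3 were higher, by 1.96 to 2.70. The guard cell gene FAMA was lower (-2.35, SE 0.129). FAMA and the leaf marker PRK (-8.77) lay below the first quartile on all 3 callus arrays, so the sizes of these 2 falls are not exact. Markers of xylem, trichomes and pollen were not analysed here. The part of a changed mix of cell types in the results below was not tested, and in these bulk samples fewer cells of a type and less RNA per cell cannot be told apart. As a sign of RNA quality, the 3' probe set of actin exceeded its 5' probe set by 1.53 ± 0.0549 in callus and 1.84 ± 0.268 in leaf (SD, n = 3 each, log2 scale). The same difference for GAPDH was 0.367 ± 0.0862 in callus and 0.247 ± 0.0654 in leaf, larger in callus where that of actin was smaller, and the part of either in the results was not tested.

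Callus differed from leaf in 16 of the 50 genes, 11 higher and 5 lower. A gene was called at a limma adjusted p under 0.05 with more than a 2-fold change. Over all 13356 genes 29.6% were called, 16.4% higher and 13.2% lower, and among the 50 the shares were 32%, 22% and 10%. The total share of calls was therefore near the background. The median log2 fold change was 0.04 for the 50 genes and 0.01 for all genes. No callus array overlapped the leaf arrays in any of the 16 called genes. The same held for 32 of the 50 genes (64%), against 66.0% of all genes. By family the called share was 60% for EXPA, 0% for EXPB, 75% for EXLA and EXLB, 44.4% for XTH, 6.67% for GH9 and 25% for CSL. These small counts were not tested against the 29.6% of all genes. What the genes of one family did was not uniform. The EXPA, XTH and CSL families each held called genes in both directions, and the largest rises and falls came from a few members: GH9B13, XTH18, XTH19 and EXPA4 rose more than 8-fold, and EXPA16 and EXPA8 fell more than 16-fold.

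**Figure D1:**
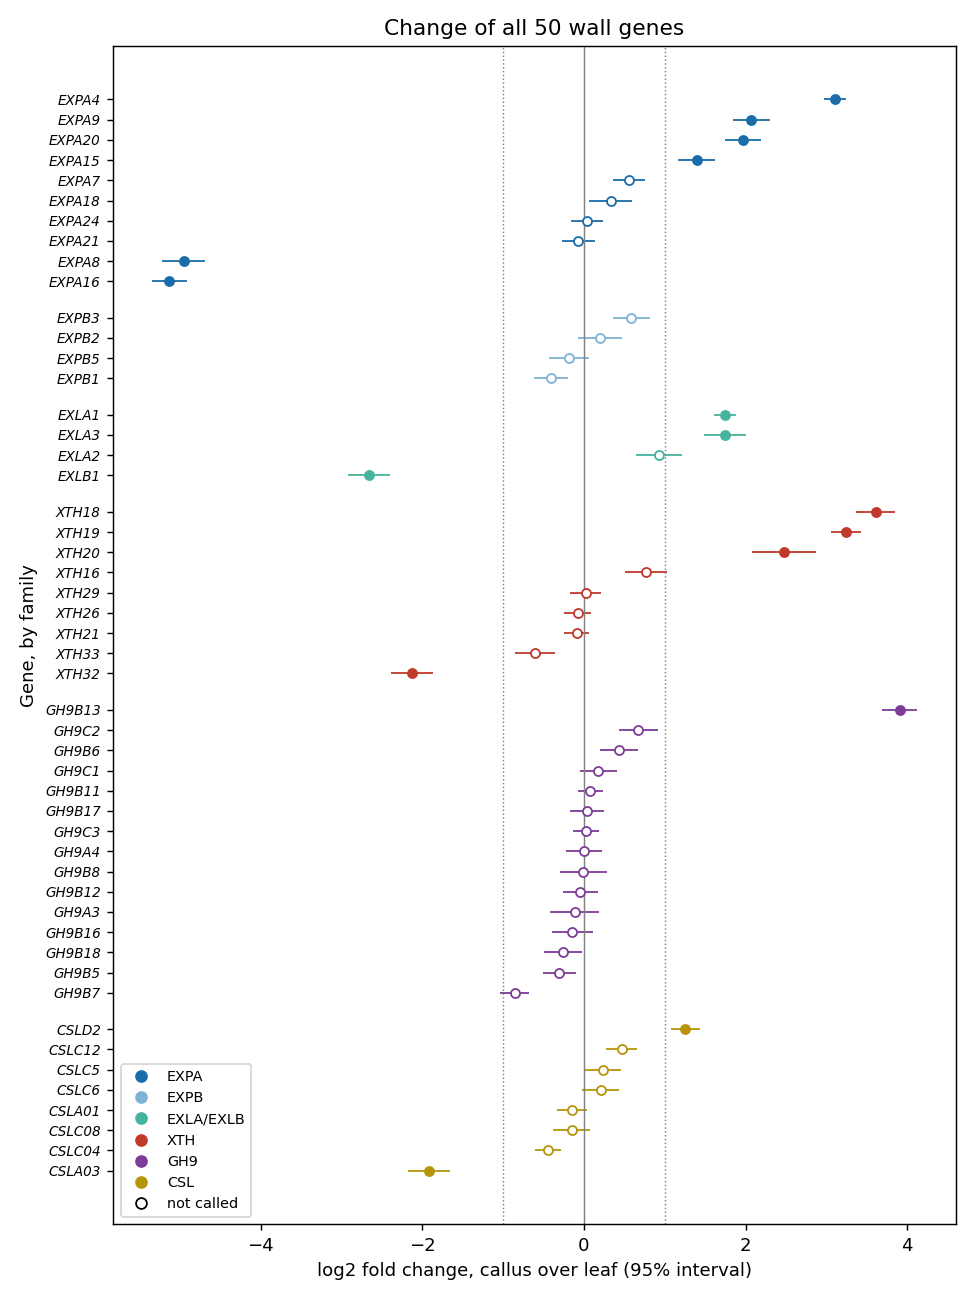
Change of all 50 wall genes between callus and leaf. The x axis gives the log2 fold change, callus over leaf, the y axis lists the genes by family, points are limma estimates, bars are 95% intervals, filled points are called genes and dotted lines mark 2-fold. The EXPA family spans -5.13 to 3.11, whereas 14 of the 15 GH9 genes lie within 2-fold.

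All values depend on how the arrays are put on a common scale. The median log2 fold change of all genes, 0.01 as deposited, became -0.58 when arrays were centred on TIP41, a gene in common use as a reference. It became 0.27 with the spiked hybridization controls as the base and 0.75 with the spiked poly-A controls, and every gene moved by the same amount as the median. On TIP41, 9 of the 50 genes were called higher and 8 lower. The hybridization base gave 13 higher and 5 lower, and the poly-A base 19 higher and 5 lower. Higher genes thus made up 68.8% of the called members as deposited, 52.9% on TIP41, 72.2% with the hybridization base and 79.2% with the poly-A base, where those shares over all genes were 55.4%, 31.0%, 64.9% and 80.1%. The 5 lower genes and 9 of the 11 higher genes kept their call under all 3 centrings, and EXPA15 (0.81) and CSLD2 (0.67) lost it on TIP41. Genes with small changes could take the opposite sign, as EXPB3, EXPA7, CSLC12, GH9B6 and EXPA18 did on TIP41 and CSLC04 and XTH33 with the poly-A base.

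The alpha-expansins, the expansins best known for acid growth, went both ways. Of 10 measured EXPA genes 4 were higher, 2 lower and 4 not called. EXPA16 had 4.13, 4.12 and 4.25 on the callus arrays, against 9.20, 9.24 and 9.46 on the leaf arrays. All callus values stood near the first quartile of their arrays and all leaf values far above it, with no overlap. The log2 fold change was -5.13 ± 0.102 (SE, limma adjusted p = 6.02e-16), 35.1-fold lower by the ratio of leaf to callus, a ratio that rests on a dim callus signal. EXPA8 followed with 4.91, 4.45 and 4.49 in callus, against 9.47, 9.75 and 9.51 in leaf. Callus replicate 1 stood above the other two, though far below every leaf array, and the log2 fold change was -4.96 ± 0.123 (SE, limma adjusted p = 7.27e-15). These were the 2 largest changes of the 50 genes in either direction.

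EXPA4 showed the largest rise among the expansins. Its arrays read 10.69, 10.80 and 10.70 in callus, against 7.57, 7.67 and 7.63 in leaf. The replicates lay close together in both tissues, and EXPA4 rose 8.62-fold (log2 fold change 3.11 ± 0.0638, SE, limma adjusted p = 9.21e-16). EXPA9 had 7.80, 7.79 and 7.64 in callus, against 5.49, 5.73 and 5.79 in leaf, a rise of 4.21-fold (2.07 ± 0.106, SE). EXPA20 was at 7.94, 8.09 and 7.83 in callus, against 6.13, 5.995 and 5.84 in leaf, and rose 3.90-fold (1.97 ± 0.104, SE). Neither gene had overlapping arrays. EXPA15 averaged 7.01 ± 0.132 in callus and 5.61 ± 0.0620 in leaf (SD, n = 3 each) and rose 2.63-fold, the smallest of these rises and the one lost after centring on TIP41.

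The root hair expansins EXPA7 and EXPA18, the 2 measured of 5 root hair markers, were not called. EXPA7 read 4.62, 4.69 and 4.69 in callus, against 4.16, 4.06 and 4.12 in leaf, and EXPA18 read 5.32, 5.33 and 5.14 in callus, against 5.11, 4.74 and 4.93 in leaf. Callus arrays were above leaf arrays for both genes, with log2 fold changes of 0.55 (95% interval 0.35 to 0.75) and 0.33 (0.07 to 0.60), and of the 3 centrings only the poly-A base took them past 2-fold (1.29 and 1.07). EXPA21 and EXPA24, whose locus numbers on chromosome 5 are 50 apart, read close to the first quartile in both tissues and were not called, at -0.07 (-0.27 to 0.14) and 0.04 (-0.16 to 0.24). The median log2 fold change of the 10 EXPA genes was 0.44 as deposited and -0.14 on TIP41, so no direction is given for the family.

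Beta-expansins (EXPB), a group known best from grass pollen, had 0 of 4 measured members called. EXPB3 averaged 5.33 ± 0.0508 in callus and 4.75 ± 0.0418 in leaf (SD, n = 3 each), with a log2 fold change of 0.59 (95% interval 0.36 to 0.82). EXPB1 went the other way, at 4.08 ± 0.0739 in callus and 4.49 ± 0.127 in leaf, -0.41 (-0.62 to -0.20). In neither gene did the arrays overlap, yet both intervals lay wholly within 2-fold. EXPB2 and EXPB5 were at 0.20 (-0.07 to 0.47) and -0.18 (-0.43 to 0.06), with overlapping arrays, and of the 4 genes only EXPB3 passed 2-fold under a centring, that with the poly-A base (1.32).

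The expansin-like genes share the expansin fold, but no wall-loosening activity is known for their products. EXLA1 read 10.31, 10.25 and 10.39 in callus, against 8.54, 8.57 and 8.60 in leaf. The tissues were well separated and the replicates tight, and EXLA1 rose 3.35-fold (log2 fold change 1.75 ± 0.0613, SE, limma adjusted p = 4.97e-13). Its neighbour EXLA3 rose by nearly the same ratio, with arrays at 6.15, 6.07 and 6.05 in callus, against 4.57, 4.25 and 4.23 in leaf (1.74 ± 0.122, SE). The leaf signal of EXLA3 was dim, so its fold may be inexact. EXLA2 lay just under 2-fold at 0.93 (95% interval 0.65 to 1.22). It read 6.05, 5.998 and 5.98 in callus, against 4.79, 5.27 and 5.17 in leaf, and was called without leaf replicate 2 (1.03), with the hybridization base (1.19) and with the poly-A base (1.67). EXLB1, the only EXLB gene that the symbol rule gave, had 4.99, 5.20 and 4.85 in callus, against 7.51, 7.72 and 7.80 in leaf. It fell to 5.01 ± 0.179 in callus, against 7.68 ± 0.149 in leaf (SD, n = 3 each), a log2 fold change of -2.66 ± 0.120 (SE, limma adjusted p = 1.11e-11). The 3 EXLA genes and EXLB1 thus had opposite signs, also under the 3 centrings. AT4G30380, which carries the name EXLB2 only as a synonym and fell outside the rule, was dim and not called (-0.01).

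**Figure D2:**
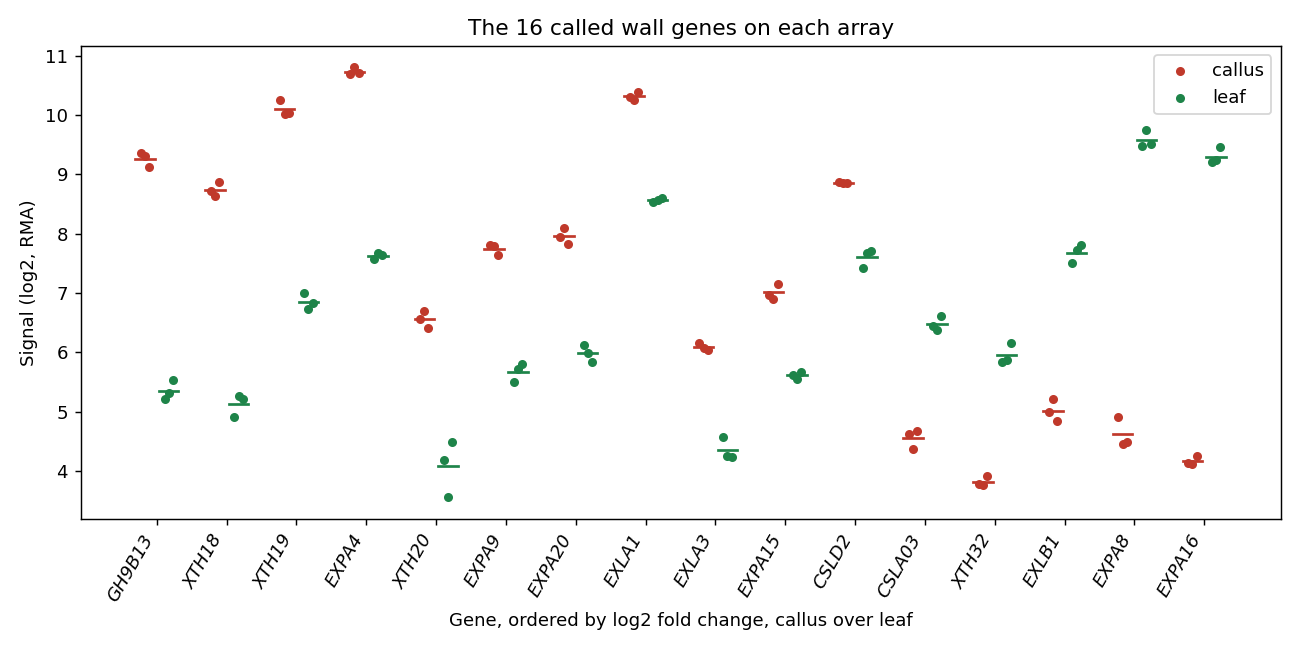
Signal of the 16 called wall genes on each array. The y axis gives the RMA signal on the log2 scale, the x axis the genes in order of log2 fold change, points are single arrays (callus left, leaf right for each gene) and lines are the means of 3 arrays. Callus and leaf arrays do not overlap for any of the 16, and the widest spread is that of XTH20 in leaf (SD 0.477).

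Among the XTH genes that the symbol rule gave, 3 of 9 were higher, 1 was lower and 5 were not called. EXGT-A3, which carries the name XTH27 only as a synonym, fell outside the rule and was lower (-1.59). The 3 that rose, XTH18, XTH19 and XTH20, are close relatives known for expression in roots, and XTH19 and XTH20 are also known from cell proliferation in wounded stems. XTH18 had 8.72, 8.64 and 8.87 in callus, against 4.91, 5.27 and 5.22 in leaf, and rose 12.2-fold (log2 fold change 3.61 ± 0.111, SE, limma adjusted p = 9.93e-14). XTH19 had 10.26, 10.01 and 10.03 in callus, against 6.99, 6.73 and 6.83 in leaf, and rose 9.50-fold (3.25 ± 0.0873, SE, limma adjusted p = 1.92e-14). All callus arrays were more than 3 log2 units above all leaf arrays for both genes. XTH20 had 6.57, 6.69 and 6.41 in callus, against 4.19, 3.56 and 4.49 in leaf. Its leaf arrays varied more than those of any other of the 50 genes, with leaf replicate 2 below the first quartile, and its rise of 5.57-fold (2.48 ± 0.185, SE, limma adjusted p = 6.49e-09) ranged from 2.22 to 2.69 on the log2 scale as each array was left out in turn. The leaf mean of 4.08 lay at the first quartile, so this fold is not exact.

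XTH32, whose protein belongs to the small branch of the family that can hydrolyse xyloglucan, fell. It read 3.79, 3.76 and 3.92 in callus, against 5.83, 5.87 and 6.16 in leaf. All 3 callus values were below the first quartile of their arrays, so that the ratio of leaf to callus, 4.38-fold, is not exact (log2 fold change -2.13 ± 0.120, SE, limma adjusted p = 1.93e-10). XTH16 and XTH33 were not called and had opposite signs, at 0.77 (95% interval 0.51 to 1.02) and -0.61 (-0.85 to -0.36), without overlap of their arrays. On TIP41 XTH33 was called lower (-1.19), and XTH16 was called higher with the hybridization base (1.03) and the poly-A base (1.51). XTH21 and XTH26, a pair known from roots and root hairs, lay below the first quartile on all 6 arrays, at 3.57 in callus and 3.66 in leaf for XTH21 and at 3.78 in callus and 3.86 in leaf for XTH26. Signals of that size may lie under what the probe sets can resolve. XTH29, somewhat above the quartile at 4.26 in callus and 4.24 in leaf, had a log2 fold change of 0.02 (-0.17 to 0.21).

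In the endoglucanase family 1 of 15 genes was called, where 29.6% of all genes were. GH9B13 encodes a class B enzyme, the secreted form without a membrane anchor or a carbohydrate-binding module. It had 9.35, 9.30 and 9.12 in callus, against 5.21, 5.32 and 5.53 in leaf. No leaf array came within 3 log2 units of a callus array, and the rise of 15.0-fold was the largest of the 50 genes (log2 fold change 3.91 ± 0.102, SE, limma adjusted p = 1.34e-14). Without any one array it stayed between 3.83 and 3.996.

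The other 14 GH9 genes lay between -0.86 and 0.67. GH9B7, also of class B, read 7.45, 7.54 and 7.47 in callus, against 8.30, 8.48 and 8.25 in leaf. It was lower on every callus array, at a log2 fold change of -0.86 (95% interval -1.03 to -0.68), and was called on TIP41 (-1.44). GH9C2, of the class with a carbohydrate-binding module, was higher on every callus array but under 2-fold, with 7.05, 6.90 and 7.11 in callus, against 6.18, 6.29 and 6.57 in leaf (0.67, interval 0.43 to 0.92). GH9B6, below the first quartile on all leaf arrays, was at 0.43 (0.19 to 0.67). GH9B5, below the first quartile on all callus arrays, was at -0.30 (-0.51 to -0.10). GH9B18 was at -0.26 (-0.49 to -0.03), and these 3 genes also had arrays that did not overlap. GH9A3 (KOR3), a membrane-anchored relative of KORRIGAN known from leaf bundle sheath cells, averaged 4.75 ± 0.102 in callus and 4.87 ± 0.307 in leaf (SD, n = 3 each), with overlapping arrays. GH9A4, GH9B11 and GH9C3 were below the first quartile on all 6 arrays. GH9B8, GH9B12, GH9B16, GH9B17 and GH9C1 ranged from -0.14 to 0.18 with overlapping arrays. With the poly-A base GH9C2 (1.41) and GH9B6 (1.17, from a dim leaf signal) were called as well.

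Of the CSL genes 1 of 8 was higher, 1 lower and 6 not called. CSLD2, a CSLD gene known from root hair growth, had 8.87, 8.85 and 8.86 in callus, against 7.43, 7.67 and 7.71 in leaf. The callus arrays were nearly equal, and CSLD2 rose 2.39-fold (log2 fold change 1.26 ± 0.0833, SE, limma adjusted p = 1.48e-09), a call lost on TIP41. CSLA03, for a mannan synthase, had 4.63, 4.38 and 4.67 in callus, against 6.45, 6.37 and 6.61 in leaf, and fell (-1.92 ± 0.123, SE, limma adjusted p = 9.18e-10). CSLA01 read near the first quartile in both tissues, with means of 3.94 ± 0.103 in callus and 4.09 ± 0.0201 in leaf (SD, n = 3 each) and a log2 fold change of -0.15 (95% interval -0.33 to 0.03).

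CSLC genes encode the glucan synthases of the xyloglucan backbone, and 0 of the 5 measured were called. CSLC04 read 8.37, 8.29 and 8.40 in callus, against 8.67, 8.86 and 8.85 in leaf. It was lower on every callus array, by a log2 fold change of -0.45 (95% interval -0.61 to -0.29), and passed 2-fold on TIP41 (-1.03). CSLC5 averaged 7.05 ± 0.161 in callus and 6.81 ± 0.0905 in leaf (SD, n = 3 each), at 0.23 (0.01 to 0.46). CSLC6 was at 0.21 (-0.02 to 0.44) and CSLC08 at -0.15 (-0.38 to 0.08). CSLC12 was at 0.47 (0.28 to 0.66), from a leaf signal of 3.90 below the first quartile, and was called with the poly-A base (1.21). The intervals of all 5 lay within 2-fold as deposited.

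**Figure D3:**
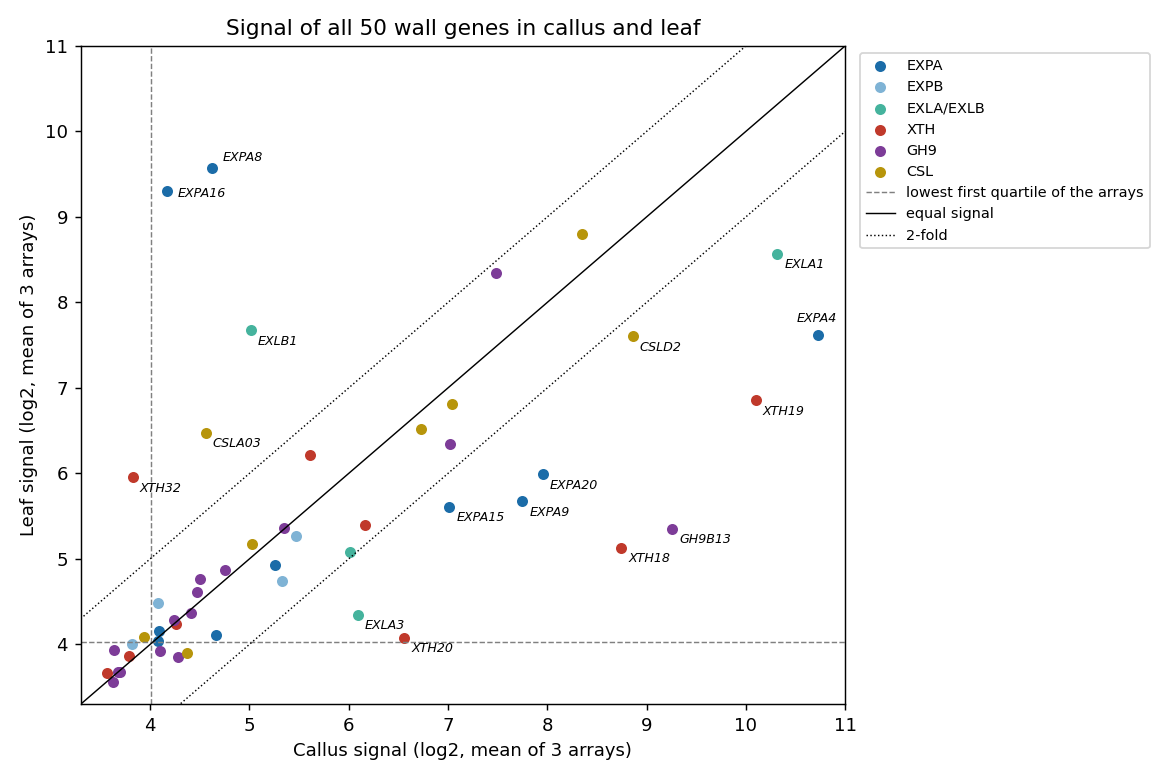
Mean signal of the 50 wall genes in callus (x axis) and leaf (y axis), both on the log2 scale over 3 arrays, coloured by family. The solid line marks equal signal, dotted lines 2-fold and dashed lines the lowest first quartile of the arrays (4.01 in callus, 4.03 in leaf). The called genes are named, and EXPA8 and EXPA16 stand apart at over 9 in leaf and under 5 in callus.

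Over the whole set, 34 genes were not called, and for 31 of them the 95% interval of the log2 fold change lay wholly within 2-fold. The exceptions were EXLA2, XTH16 and GH9B7, whose intervals ended at 1.22, 1.02 and -1.03. Of the 34, 14 passed an adjusted p of 0.05 in limma with a smaller change, 8 higher and 6 lower, so that 30 of 50 genes passed with no fold minimum, where 61.2% of all genes did. Dim signals were part of this group, since 5 of the 50 genes (GH9A4, GH9B11, GH9C3, XTH21 and XTH26) lay below the first quartile on all 6 arrays, against 17.3% of all genes.

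Some members are neighbours in the genome. Pairs of members whose locus numbers lay within 50 of each other were found at 5 places. XTH18 and XTH19 (AT4G30280 and AT4G30290) and EXLA3 and EXLA1 (AT3G45960 and AT3G45970) were adjacent pairs that rose together. At the other 3 places, namely the adjacent GH9B11 and GH9B12, the group GH9B16, GH9B17 and GH9B18, and the pair EXPA21 and EXPA24, which is not adjacent, 0 genes were called, as for 34 of the 50 genes. Tandem copies are often close in sequence, and whether probes of one detect the other was not tested. None of the 50 probe sets carried the array's own mark for probes shared between transcripts.

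The study compared H3K27me3, a histone mark of silenced genes, between leaf and callus on separate arrays. Its list of loci with less of the mark in callus held 3 of the 50 genes, GH9B13, XTH20 and XTH26, and its list of loci with more held 0. Of all 13356 genes, 167 (1.25%) were on the list with less of the mark and 68 (0.509%) on that with more. Among those 167 genes 70 (41.9%) were called higher in callus and 9 lower. Counts as small as 3 and 0 were not tested against these shares. GH9B13 and XTH20 were higher in callus (log2 fold change 3.91 and 2.48), and XTH26 was at -0.08 with a signal under the first quartile on every array. XTH18, XTH19 and EXPA4 were on neither list.

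Few partners of these genes in wall synthesis were measured, 8 of the 181 entries in 9 lists of wall genes. Measured, here and above, means matched to a probe set with 1 gene in the gene table. A gene not matched may still be on the array, since 8730 probe sets had no entry and 503 had several genes. COBRA (COB), a membrane-linked protein needed for oriented cellulose deposition, was lower, with 8.48 ± 0.125 in callus, against 9.94 ± 0.106 in leaf (SD, n = 3 each, log2 fold change -1.46, limma adjusted p = 8.12e-11). Of 4 measured wall-associated receptor kinases 1 was called, a count too small to set against the 29.6% of all genes. THE1 (THESEUS1), a sensor of disturbed cellulose synthesis, averaged 7.27 ± 0.103 in callus, against 8.97 ± 0.132 in leaf, -1.70 (limma adjusted p = 4.90e-11), while FERONIA (FER) was at 0.29 and the pollen tube kinases ANX1 and ANX2 were at -0.18 and 0.19. The falls of COB and THE1 depend on the scale. The poly-A controls differed by -0.74 (callus minus leaf), so with them as the base both falls would be less than 2-fold. With the same base FER would be just over 2-fold higher in callus. The xylan genes IRX10, IRX15 and IRX15-L were at -0.35, 0.11 and -0.44, with 0 of 3 called as deposited. TIP41 differed by 0.59 (callus minus leaf), so after centring on it IRX15-L would be just over 2-fold lower. Lists for xyloglucan side chains, callose, mannan, arabinogalactan proteins, extensins and proton pumps had 0 genes measured in this sense and were not analysed here.

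**Figure D4:**
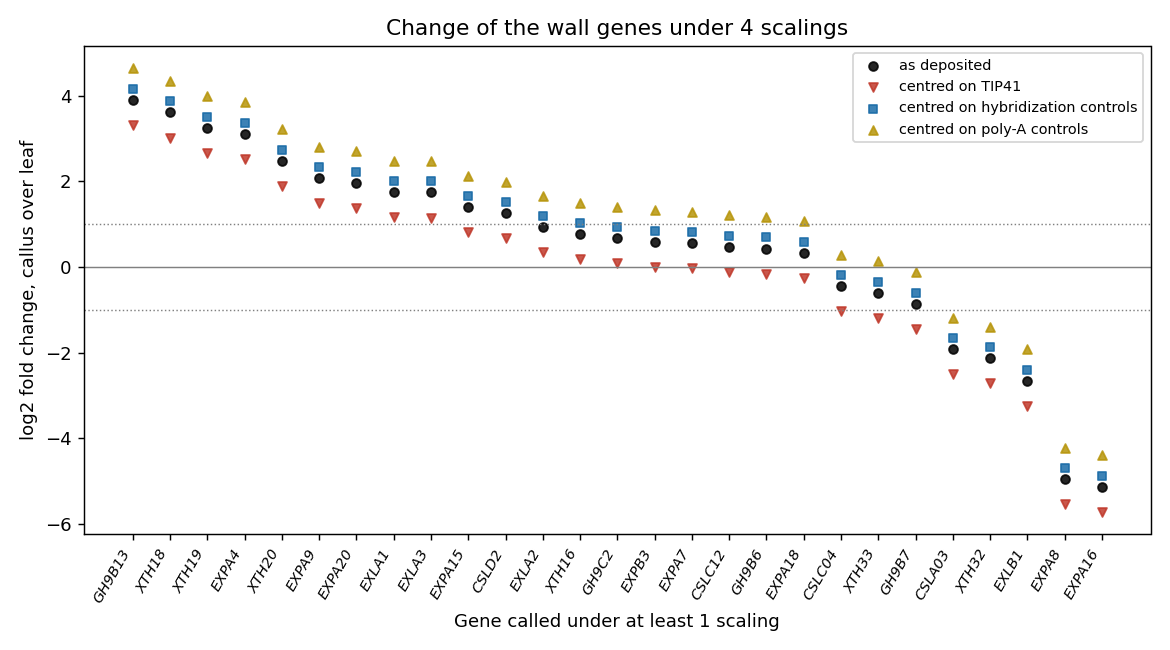
Log2 fold change, callus over leaf (y axis), of the 27 wall genes called under at least 1 of 4 scalings (x axis), as deposited or after centring on TIP41, the hybridization controls or the poly-A controls. Dotted lines mark 2-fold. The 5 lower genes stay below -1 under all 4 scalings, and EXPA15 and CSLD2 fall below 1 on TIP41.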

How the data were processed

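For 3 callus and 3 leaf arrays of independent experiments, the table that the authors deposited holds log2 signals by probe set. The submitters' processing notes name RMA (background correction, quantile normalization, probe set summary) and Partek, their versions being not given in the sources used here. Because quantile normalization equalizes the arrays, a change in total RNA per cell is hidden. After removal of control probe sets 22746 probe sets remained. The platform's gene table gave 1 gene for 13513, several for 503 and no entry for 8730, which are unnamed here. Genes with several probe sets were represented by the brightest on average, leaving 13356 genes. Symbols were updated through gene identifiers with the RefSeq gene table.

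The tissues were compared in R 4.3.3 with limma 3.58.1, using lmFit and a trended eBayes, two-sided, with Benjamini-Hochberg adjustment over 13356 genes. A call needed an adjusted p under 0.05 and more than 2-fold. Errors are SD over 3 arrays or the moderated SE. Alternatives covered scaling, filters, probe set choice, thresholds, left-out arrays, a replicate block and a t-test at the paper's thresholds. The paper's methods name no test for these arrays. Of the steps, only the limma fit and the t-test were tested on simulated data. The members, lists and alternatives were chosen with earlier results of these data known. The rule for naming took called members without overlap of arrays (up to 6 per direction in EXPA and XTH, 4 elsewhere), members on an H3K27me3 list, neighbours of named members, the brightest and dimmest of each family and up to 2 called genes per direction of a related list. Other members are named to account for all 50. H3K27me3 membership came from the study's 2 supplementary locus lists.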

Additional observations from a re-analysis of the deposited data

How the results depend on the processing

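Over 20 alternatives, the 50 genes gave 969 comparisons, of which 8 lost a call and 28 gained one. Of these, 6 losses and 14 gains came only from moving the fold threshold. A sign could change only under the centrings, the repeated quantile normalization and the left-out arrays. The other alternatives leave a member's log2 fold change as it is. Of the genes not called, 30 of 34 changed sign in 55 comparisons, 41 of them under the centrings. No called gene did so, but the centrings could not have turned one. They moved every gene by less than the 2-fold that a call needs. The genes called higher (11 as reported) numbered 19 on the poly-A controls, 19 with no fold minimum and 6 at more than 4-fold. Those called lower (5) numbered 8 on TIP41, 3 without genes below the median signal, which left 19 of the 50, and 11 with no fold minimum. All genes called (3958) became 8170 with no fold minimum and 1795 at more than 4-fold. Leaving out each array in turn gave 11 to 12 higher, 5 lower and 3921 to 4007 genes in all, and changed 1 call, that of EXLA2 without leaf replicate 2. Quantile normalization applied again, no intensity trend, all probe sets fitted and a t-test at the paper's thresholds changed no call among the 50. The choices of probe set could not change a member's own values, since each had 1 probe set and none was marked as shared. Same-numbered arrays did not deviate together (correlations of -0.11, 0.07 and -0.04 for replicates 1 to 3), and with the replicate block 11 genes were higher and 5 lower, as without it, and 3958 were called in all. Limits are the few named genes of each family, the absence of a detection call and dim signals, which make the folds of EXPA16, XTH32 and XTH20 inexact. The same may hold for EXLA3 (leaf mean 4.35), EXPA8 (callus mean 4.62) and CSLA03 (callus mean 4.56).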

Other observations

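A pair of further genes carried a family name only as a synonym and so fell outside the rule. EXGT-A3, also known as XTH27, read 10.32, 10.30 and 10.35 on the callus arrays, against 11.94, 11.89 and 11.92 on the leaf arrays. The groups did not overlap, and the log2 fold change was -1.59 ± 0.0479 (SE, limma adjusted p = 4.20e-14). The poly-A controls differed by -0.74 (callus minus leaf), so with them as the base this fall would be less than 2-fold. The other, AT4G30380, with the synonym EXLB2, averaged 3.88 in callus and 3.89 in leaf and was not called (-0.01, interval -0.21 to 0.18). Another 4 probe sets stood for a pair of genes each of these families and could not be assigned to one of them. EXPA22 and EXP26 shared one at 3.83 in callus and 3.98 in leaf, EXPA23 and EXPA25 one at 4.27 in callus and 4.49 in leaf, GH9B14 and GH9B15 one at 3.53 in callus and 3.47 in leaf, and GH9B9 and GH9B10 one at 3.07 in callus and 3.29 in leaf, with 0 of the 4 called.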
